A study of Caenorhabditis elegans with 4 samples.

Results

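The heat shock genes described here are 9 of the 19912 genes in the deposited gene table. They were chosen by name as the small heat shock protein genes hsp-16.1, hsp-16.2, hsp-16.41 and hsp-16.48, the HSP70 genes hsp-70 and hsp-1, the HSP110 gene hsp-110, the HSP90 gene daf-21 and the heat shock factor hsf-1. The table carries 8 of them under these names, and hsp-110 was found by its RefSeq transcript, which is listed there under the gene name Msi3p. Of the 9 genes, 5 passed the filter on low counts (hsf-1, hsp-1, hsp-110, daf-21 and hsp-70), hsp-16.2 and hsp-16.41 had too few reads, and hsp-16.1 and hsp-16.48 had none. RNA of whole adult C. elegans of the wild-type strain N2 was sequenced 48 h after the L4 larval stage. Worms of the arsenite group were exposed for 48 h to 100 nM arsenite in agar. Worms of the control group lived on agar with water, the solvent, and all were fed heat-inactivated OP50 E. coli. Each group has 2 libraries, and nothing in the sources used here says that these came from separate cultures, so a p-value here rests on the spread of these libraries alone, which may be technical. The comparison asks whether a low dose of arsenite left the heat shock genes at another level than solvent did.

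Heat shock proteins are chaperones, which bind unfolded proteins and keep them from aggregating or help them to fold. In C. elegans the hsp-16 genes and hsp-70 are nearly silent in unstressed animals and are switched on by the factor HSF-1, which binds heat shock elements in their promoters when heat or another stress unfolds proteins. The genes hsp-1, hsp-110 and daf-21 work in unstressed cells as well. HSP70 proteins bind and release unfolded chains, HSP110 proteins exchange the nucleotide of HSP70 to let a chain go, and HSP90, coded by daf-21, matures kinases and receptors and in mammals is known to hold HSF1 in check. Arsenite reacts with thiol groups of proteins, and at toxic doses it is a classical inducer of the heat shock response.

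The libraries held 30583832 to 35218389 reads, computed from each library's counts and its RPKM values (reads scaled to transcript length and library size). Short transcripts were shifted upward with arsenite, most in arsenite replicate 2. For the shortest 10% of the genes tested, up to 543 nt long, arsenite replicate 2 had a median log2 ratio to the control mean of 0.13 and arsenite replicate 1 one of 0.059, against 0.0056 and 0.0021 over all genes tested. Markers of the tissues of a gravid adult were present, and all 12 genes on the list for embryo and germline had a fitted log2 fold change above 0 (10 with library size only), with a median of 0.088. Their summed level was 3626 to 3916 RPKM in control and 3831 to 3928 RPKM in arsenite libraries. All 6 pharynx markers were below 0 with a median of -0.22, and their summed level was 128 to 133 RPKM in control and 106 to 112 RPKM in arsenite libraries. The exact test of edgeR called 2 of these 6 lower (myo-1 and myo-2), beside 0.617% of all genes tested. None of the 6 was called by the quasi-likelihood test of edgeR, which called 0 of all 13776 genes tested. For body wall muscle 1 of 6 markers was above 0, and the sums were 894 to 909 RPKM in control and 802 to 853 RPKM in arsenite libraries. For the epidermis 5 of 6 markers were below 0 (median -0.25), with sums of 164 to 172 RPKM and 157 to 176 RPKM. Of the neuron markers 4 of 6 were below 0 (median -0.14), with sums of 210 to 212 RPKM and 200 to 205 RPKM. Of the intestine markers 5 of 8 were below 0 (median -0.034). Their sums were 18423 to 20699 RPKM in control and 19504 to 21986 RPKM in arsenite libraries. Most of these sums came from vit-6 and vit-2, with means of 12360 and 5452 RPKM over the 4 libraries, so the sums say little of the other intestine markers. Sperm markers summed to 1.04 to 1.08 RPKM in control and 0.904 to 1.33 RPKM in arsenite libraries, and 2 of these 6 genes were tested. Scaling by library size only, in place of TMM factors, moved the median log2 fold change of all genes tested from 0.0055 to -0.034. The part of these tissues in the values below was not tested, and in whole worms fewer cells of a type and less RNA per cell cannot be told apart.

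The factor hsf-1 was expressed at nearly the same level in all 4 libraries. The gene lies on chromosome I of WBcel235 from 11953509 to 11961984, on the minus strand. Its normalized counts, which are read counts scaled to equal library size by TMM factors, were 3973 for control replicate 1, 3967 for control replicate 2, 4013 for arsenite replicate 1 and 4137 for arsenite replicate 2. Both arsenite libraries thus lay above both controls, which differed by 0.149% of their mean, and the group means were 3970 ± 4.19 (SD, n = 2) and 4075 ± 87.5 (SD, n = 2). On the RPKM scale, which carries no TMM factor, the order was different. There the controls had 53.7 and 52.2 RPKM and the arsenite libraries 52.5 and 52.9 RPKM, so that the groups overlapped. Fitted with the quasi-likelihood (QL) test of edgeR, hsf-1 had a log2 fold change of 0.04 (SE 0.06, 95% CI -0.098 to 0.17) at a Benjamini-Hochberg adjusted p of 0.952. In percent this interval runs from -6.58 to 12.8. With scaling by library size only the log2 fold change turned to -0.0019.

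The constitutive chaperone genes were among the most highly expressed genes of these worms, and their levels did not differ between the groups beyond the spread of the replicates. Together hsp-1, daf-21 and hsp-110 took 0.549% and 0.589% of the reads in the controls, and 0.585% and 0.570% of those with arsenite. The gene counts sum over transcripts and so to more than the reads, and of these larger totals the shares were 0.385% and 0.407% in the controls and 0.409% and 0.398% with arsenite. The HSP70 gene hsp-1 lies on chromosome IV (17278959 to 17281330, plus strand). It reached normalized counts of 75100 and 86805 in the controls and 84215 and 87209 with arsenite. The low value was that of control replicate 1, while the other 3 libraries lay close together. The control libraries differed by 14.5% of their mean and the arsenite libraries by 3.49%, against a difference between the group means of 5.88%. For hsp-1 the fit gave 0.08 on the log2 scale (SE 0.08, 95% CI -0.099 to 0.26, QL adjusted p = 0.93). This log2 fold change turned to -0.021 without control replicate 1 and was 0.19 without control replicate 2.

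The HSP90 gene daf-21, on chromosome V from 14686160 to 14688539, had normalized counts of 87325 and 92117 in control worms and of 94588 and 91615 in worms with arsenite. These ranges overlap, and the fitted difference was 0.05 on the log2 scale (SE 0.07, 95% CI -0.10 to 0.21, QL adjusted p = 0.944). It was 0.013 to 0.093 when 1 library was left out. An exon of daf-21 overlaps one of C47E8.4 on the opposite strand, and the library kit does not mark the strand. C47E8.4 itself had 1630 to 1993 reads per library, against 86179 to 95893 for daf-21.

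The HSP110 gene hsp-110 lies on chromosome III from 8443910 to 8446909, on the minus strand. Its normalized counts were 12378 and 13624 in the controls and 13420 and 13093 in the arsenite libraries, both of which fell between the controls. The fitted difference was 0.03 on the log2 scale (SE 0.07, 95% CI -0.12 to 0.17, QL adjusted p = 0.97), and it turned to -0.0096 with library size only and to -0.042 without control replicate 1. As with hsp-1, the lowest library was control replicate 1.

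**Figure D1:**
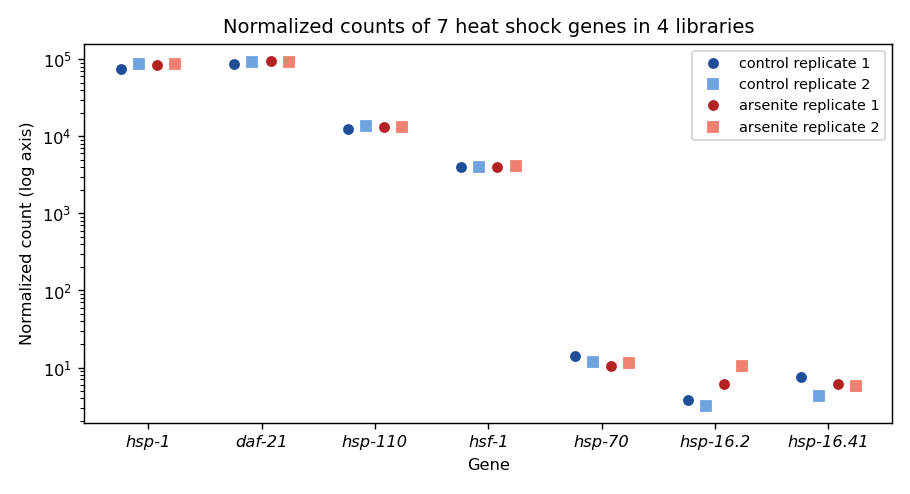
Normalized counts (log axis) of the 7 genes with any reads, by library, with circles for replicate 1 and squares for replicate 2 of each group. The constitutive genes hsp-1 and daf-21 lie between 75100 and 94588 in all 4 libraries, hsf-1 between 3967 and 4137, and the inducible genes at 14.3 or below, while hsp-16.1 and hsp-16.48 had no reads and are not drawn.

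The inducible HSP70 gene hsp-70 was barely detected in either group. It lies on chromosome I from 9320325 to 9322519 and had 15 reads in control replicate 1, 11 in control replicate 2, and with arsenite 10 and 12. The exact 95% Poisson limits of these counts, which cover counting error only, ran from 4.80 reads at the lowest to 24.7 reads at the highest, and those of all 4 libraries overlap. After scaling, both arsenite libraries lay below both controls, with normalized counts of 10.3 and 11.5 against 14.3 and 11.8. The log2 fold change was -0.26 (SE 0.38, 95% CI -1.12 to 0.60, QL adjusted p = 0.951), an interval that includes both a fall and a rise. Per length, the level of hsp-1 was 5081 times that of hsp-70 in control replicate 1 and 7145 times in control replicate 2, and it was 7898 and 7362 times with arsenite.

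Of the 9 genes, 5 passed the filter on low counts, and none of these was called at an adjusted p under 0.05 by the QL test, the exact test of edgeR, its likelihood ratio test or DESeq2, nor at an unadjusted p under 0.05 by the QL test. Over all 13776 genes tested, the QL test called 0.0% in each direction, while at an unadjusted p under 0.05 the shares were 2.16% higher and 5.05% lower with arsenite. The exact test called 0.392% higher and 0.617% lower, and the likelihood ratio test and DESeq2 called 157 and 30 genes in all. DESeq2 gave hsp-70 no adjusted p. The arsenite libraries did not overlap the controls in hsf-1, where they were higher, and in hsp-70, where they were lower, and over all genes tested these shares were 17.1% and 19.1%. On the RPKM scale hsp-70 was still lower without overlap, as were 26.6% of all genes tested, while 8.49% were higher. In absolute size, the log2 fold changes of hsp-110, hsf-1, daf-21, hsp-1 and hsp-70 exceeded those of 19.8%, 25.9%, 35.9%, 50.9% and 83.6% of all genes tested, in this order. The standard error of hsp-70, a gene of few reads, was the largest of the 5.

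**Figure D2:**
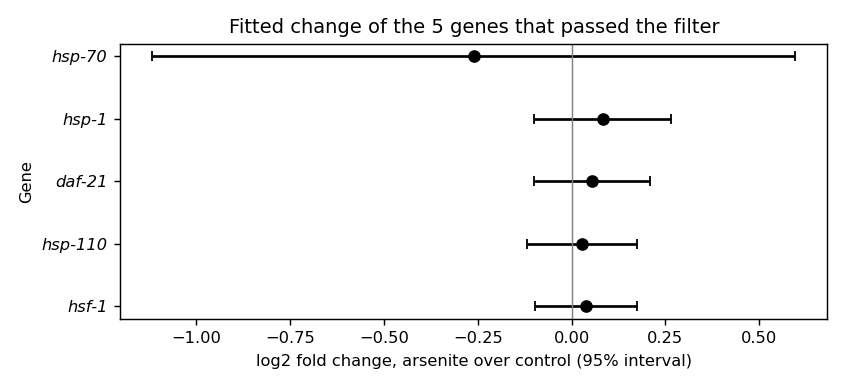
Fitted log2 fold change of arsenite over control (horizontal axis) for the 5 genes that passed the filter on low counts, with bars for the 95% interval of the QL test. All 5 intervals include 0, and that of hsp-70 reaches from -1.12 to 0.60.

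The small heat shock protein genes hsp-16.2 and hsp-16.41 code for chaperones of the alpha-crystallin type that hold unfolded proteins without ATP, and hsp-16.2 is the usual reporter of the heat shock response in this worm. They stand head to head on chromosome V, hsp-16.2 from 1804334 to 1804957 on the minus strand and hsp-16.41 from 1805178 to 1805875 on the plus strand, with 220 bases between them. Each gene has 24 reads over all 4 libraries, too few for the filter. For hsp-16.2 there were 4 and 3 reads in the controls, and 6 and 11 reads in arsenite replicates 1 and 2. Both arsenite libraries lay above both controls, also after scaling, and arsenite replicate 2 was the highest. Over all genes tested, 17.1% were higher with arsenite without overlap in normalized counts, and 8.49% on the RPKM scale. The gene hsp-16.2 is not among the genes tested. In sum it had 7 reads against 17, a ratio of 2.39 with an exact 95% counting interval from 0.942 to 6.82, which includes 1. Fitted without the filter, the log2 fold change was 1.23 (SE 0.70, QL adjusted p = 0.858). The transcript of hsp-16.2 is short, with 485 nt as implied by its counts and RPKM values and 578 nt in the Ensembl annotation, and its log2 ratio to the control mean, with a pseudocount of 1, was 0.67 in the first arsenite library and 1.35 in the second. The part of transcript length in this value was not tested.

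Its neighbour hsp-16.41 showed no such order. It had 8 and 4 reads in the controls and 6 reads in each arsenite library, which is 12 reads in either group and a ratio of 0.984 with a counting interval from 0.404 to 2.40. The log2 fold change without the filter was -0.02 (SE 0.66, QL adjusted p = 0.998). The difference between these neighbours was not tested.

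The genes hsp-16.1 and hsp-16.48 are listed with 0 reads in every library. They form the same kind of pair on chromosome V, hsp-16.1 from 9087293 to 9087782 on the minus strand and hsp-16.48 from 9088131 to 9088617 on the plus strand, with 348 bases between them. The adjacent locus holds a mirrored second copy, hsp-16.49 from 9089280 to 9089766 and hsp-16.11 from 9090077 to 9090604, and both of these are at 0 reads as well. The coding sequence has 435 bases before the stop codon in hsp-16.1 and in hsp-16.11, and 429 bases in hsp-16.48 and in hsp-16.49, and the Ensembl annotation names hsp-16.11 hsp-16.1 and hsp-16.49 hsp-16.48. The authors counted uniquely mapped reads only, and reads that match several copies are not among these. A count of 0 has an exact 95% Poisson upper limit of 3.69 uniquely mapped reads, and for genes with such copies it sets no limit on their RNA. The part of unique mapping in these zeros was not tested, and hsp-16.2 and hsp-16.41 are the only hsp-16 genes with any reads here.

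**Figure D3:**
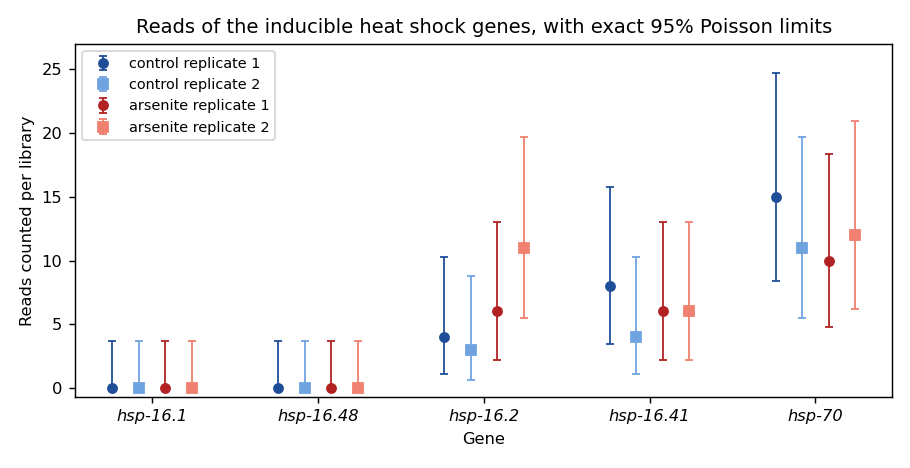
Reads counted per library (vertical axis) for the 4 hsp-16 genes and hsp-70, with bars for exact 95% Poisson limits. In hsp-16.2 both arsenite libraries (6 and 11 reads) lie above both controls (4 and 3 reads), with limits that overlap, while hsp-16.41 and hsp-70 show 4 to 15 reads and hsp-16.1 and hsp-16.48 none. In normalized counts 17.1% of all genes tested, which do not include hsp-16.2, were higher with arsenite without overlap.

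Ordered by mean level over the 4 libraries, hsp-1 came first with 1222 RPKM and daf-21 second with 1184 RPKM, at ranks 36 and 39 of all genes. The ranges of these genes over the libraries, 1134 to 1277 and 1155 to 1222 RPKM, overlap, and hsp-1 was the higher of the pair in 3 of 4 libraries. Next came hsp-110 with 149 RPKM and hsf-1 with 52.8 RPKM, each apart from its neighbours in every library. The inducible genes followed at a distance. Pooled over the libraries, hsp-16.2 had 0.378 RPKM (95% counting interval 0.242 to 0.562), hsp-16.41 had 0.313 RPKM (0.201 to 0.466) and hsp-70 had 0.182 RPKM (0.134 to 0.241). The intervals of hsp-16.2 and hsp-16.41 overlap, as do those of hsp-16.41 and hsp-70, and that of hsp-16.2 lies just above that of hsp-70. These intervals cover counting error only. Over the single libraries the ranges of hsp-16.2 (0.202 to 0.644 RPKM) and hsp-70 (0.156 to 0.223 RPKM) overlap. In RPKM, hsp-16.41 was above hsp-16.2 in both controls (0.410 and 0.224 against 0.247 and 0.202 RPKM). In both arsenite libraries hsp-16.2 was the higher (0.389 and 0.644 against 0.322 and 0.291 RPKM). This order rests on 3 to 11 reads per gene and library, and the Poisson limits of the genes overlap in each library. In arsenite replicate 1 both genes had 6 reads, and only the shorter length of hsp-16.2 (485 against 585 nt) put it higher. Whether the order differs between the groups was not tested.

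Within the small heat shock proteins, sip-1, a chaperone of oocytes and embryos, stood far above the rest with a mean of 2432 RPKM, rank 6 of all genes. The others of this family that had reads ranged from 0.191 RPKM for F08H9.4 to 73.4 RPKM for hsp-25, a gene of muscle and pharynx. In the HSP70 family, the order after hsp-1 was hsp-3 with 377 RPKM and hsp-4 with 189 RPKM, which both code for the HSP70 of the endoplasmic reticulum, and hsp-6, the mitochondrial HSP70, with 176 RPKM. The heat-inducible genes F44E5.4 and F44E5.5 each had 2 reads in control replicate 1, 1 read in control replicate 2 and 0 in both arsenite libraries, too few for a fold. These neighbours showed the same counts in every library and may not be separate measurements. Only uniquely mapped reads were counted, and the part of unique mapping in these low counts was not tested.

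**Figure D4:**
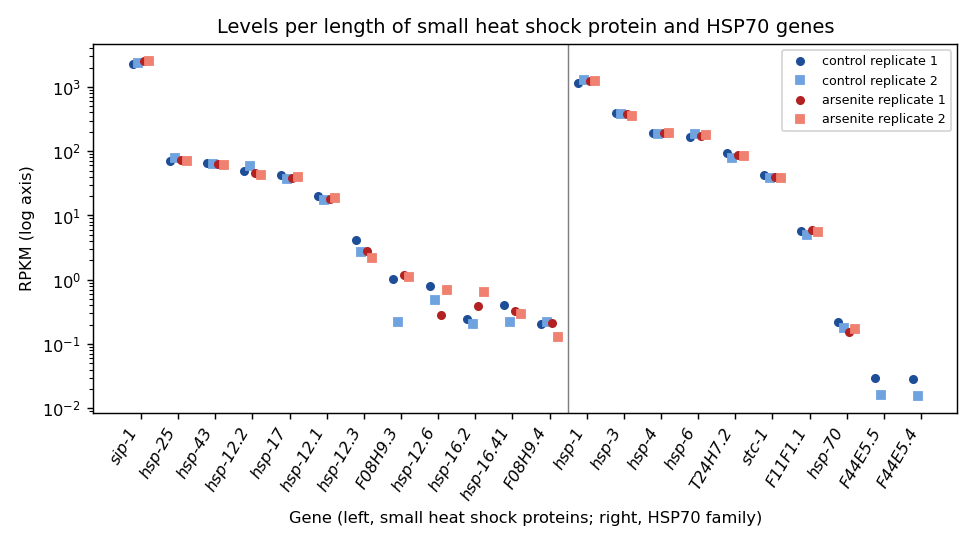
RPKM per library (log axis) of the small heat shock protein genes (left) and the HSP70 genes (right), sorted by mean within each family, with circles for replicate 1 and squares for replicate 2. The levels run from sip-1, with a mean of 2432 RPKM, and hsp-1, with 1222 RPKM, down to inducible genes below 1 RPKM, and values at 0 (F44E5.4 and F44E5.5 with arsenite, and hsp-16.1, hsp-16.11, hsp-16.48 and hsp-16.49) are not drawn.

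The other chaperone genes gave a similar picture of small differences. Of 74 genes in 7 lists, 68 were tested, and none passed the QL test, the exact test, the likelihood ratio test or DESeq2 over all genes. Of all 13776 genes tested the QL test called 0.0% in each direction, and the exact test called 0.392% higher and 0.617% lower. The likelihood ratio test and DESeq2 called 157 and 30 of them. At an unadjusted p under 0.05 of the QL test 2 of the 68 were higher and 2 were lower, beside 2.16% and 5.05% of all genes tested. The fitted log2 fold change was above 0 in 49 of the 68, with a median of 0.036, while over all genes tested it was above 0 in 51.8% and the median was 0.0055. These directions depended on the scaling, and with library size only 32 of the 68 and 36.3% of all genes tested were above 0.

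Among 12 further small heat shock proteins, 8 were tested, 4 with a fitted value above 0 and 4 below (3 and 5 with library size only). For sip-1 the normalized counts were 45398 and 49299 in the controls and 53288 and 54545 with arsenite. The arsenite libraries were thus the higher ones, with a log2 fold change of 0.19 (SE 0.07, 95% CI 0.035 to 0.34). The QL adjusted p was 0.53 and that of the exact test 0.323. The log2 fold change of sip-1 was 0.25 without control replicate 2 and 0.13 without control replicate 1, each time against 1 control library. With library size only it was 0.15, and with the length correction 0.16. As a gene of oocytes and embryos sip-1 stands beside the embryo and germline markers given above, and their part in its value was not tested. For hsp-12.2, a small heat shock protein gene whose product lacks a chaperone activity in the test tube, the normalized counts were 786 and 973 in the controls and 763 and 713 with arsenite. Here the arsenite libraries lay below both controls, and the log2 fold change was -0.25 (SE 0.11, QL adjusted p = 0.663). Without control replicate 1 it was -0.40, and without control replicate 2 it was -0.092, each time against 1 control library. F08H9.3 had 15 and 3 reads in the controls and 17 in each arsenite library, a log2 fold change of 0.89 (SE 0.52, QL adjusted p = 0.802). For hsp-12.3 it was -0.43 (SE 0.29, QL adjusted p = 0.854), with groups that overlap.

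Among 8 further HSP70 genes 6 were tested, 4 with a fitted value above 0 (3 with library size only), and the median was 0.036. The smallest p of these belonged to F11F1.1 with a log2 fold change of 0.16 (SE 0.11, QL adjusted p = 0.873). For hsp-4, hsp-6 and T24H7.2 the log2 fold changes were 0.05, 0.05 and 0.02.

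All 29 matched HSP40 genes, whose J-domain proteins hand unfolded chains to HSP70, were tested, and 23 had a fitted value above 0, with a median of 0.070. With library size only 17 were above 0, with a median of 0.027. In 12 of the 29 both arsenite libraries lay above both controls and in 2 below, which is 41.4% and 6.90% against 17.1% and 19.1% of all genes tested. On the RPKM scale it was 3 of the 29 in each direction, or 10.3%, against 8.49% and 26.6% of all genes tested. The smallest p-values belonged to dnj-24, with -0.25 on the log2 scale (SE 0.098, QL adjusted p = 0.569), and to dnj-3, with 0.32 (SE 0.14, QL adjusted p = 0.663). They were followed by dnj-21 with 0.25 (SE 0.12) and dnj-30 with 0.16 (SE 0.083), both also not called. The genes of the cytosolic J-domain proteins dnj-12 and dnj-13 had log2 fold changes of 0.10 and 0.076.

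Of the 11 cochaperones of HSP70 and HSP90, 7 had a fitted value above 0, with a median of 0.017, and with library size only 5 were above 0 and the median was -0.020. The kinase-specific HSP90 partner cdc-37 had the smallest p, with 0.12 on the log2 scale (SE 0.06, QL adjusted p = 0.714). For daf-41, which codes for the HSP90 cochaperone p23, the value was also 0.12 (SE 0.06, QL adjusted p = 0.731). It was 0.12 for bag-1, whose family exchanges the nucleotide of HSP70, and 0.07 for fkb-6. The 8 subunits of the cytosolic chaperonin CCT, which folds actin and tubulin, lay between -0.022 for cct-1 and 0.037 for cct-6, with cct-8, cct-2 and cct-7 at 0.036, 0.03 and 0.035. Of these 6 were above 0, and none with library size only. All 3 genes of HSF-1 regulators had values above 0 (2 with library size only), from 0.039 for ddl-2 to 0.077 for ddl-1, and hsb-1, which codes for a protein that binds HSF-1 and represses it, had 0.072. The 6 chaperones of mitochondria and the endoplasmic reticulum lay between -0.0092 for hsp-3 and 0.051 for hsp-6, with 0.04 for hsp-60 and 0.042 for hsp-75, and 4 were above 0 also with library size only.

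**Figure D5:**
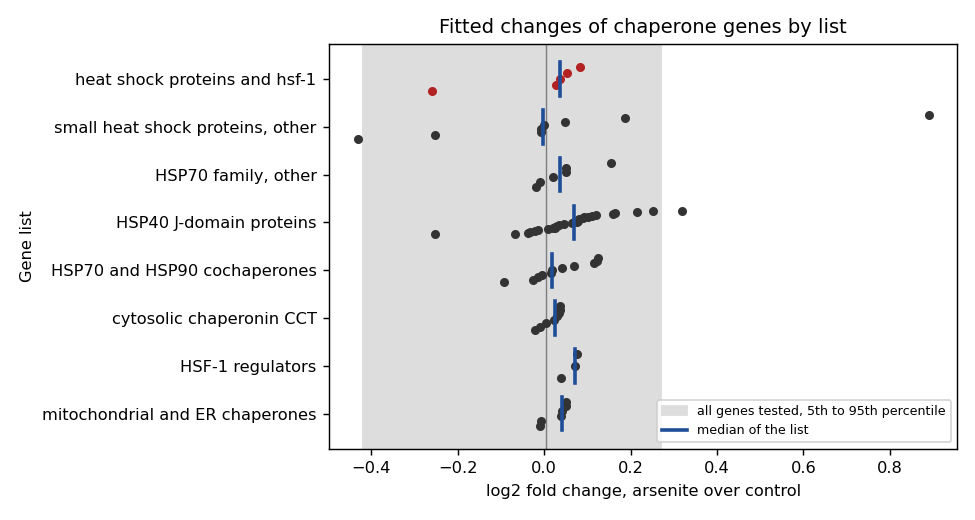
Fitted log2 fold change (horizontal axis) of each tested gene, by list, with the 5 tested heat shock genes in red, blue bars for list medians and grey for the range from the 5th to the 95th percentile of all genes tested. Medians of the other chaperone lists lie between -0.0032 and 0.072 with TMM factors, those of 4 lists being below 0 with library size only, and the genes of the CCT list lie between -0.022 and 0.037.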

How the data were processed

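The authors used Bowtie to align filtered reads to genome and exon junction sequences, discarded reads without a unique position and counted the others by RefSeq annotation. The submitters' processing notes name CASAVA and the build WBcel235, and tool versions were not given in these sources. The authors deposited whole-number read counts, which are not normalized, and RPKM values for 23858 transcripts and 19912 genes. Each of the 9 genes has a single transcript in these tables.

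Gene counts were tested with edgeR 4.0.16 in R 4.3.3: filterByExpr (minimum count 10, minimum total 15), TMM, estimateDisp and the quasi-likelihood test of arsenite against control, with p-values adjusted after Benjamini and Hochberg over the 13776 genes tested and called under 0.05. SE was obtained as the absolute log2 fold change divided by the root of F. Alternatives used DESeq2 1.42.0, limma 3.58.1, other filters and scalings, a block for replicate numbers, a loess length correction (span 0.5) and each library left out. The scripts were tested on simulated data. Coordinates are those of RefSeq on WBcel235, and exons those of Ensembl. The rule for named genes took all 9 genes, their near copies, and of each list up to 4 genes with the smallest p. The genes dnj-12, dnj-13, cct-1, hsp-3, hsp-25, F08H9.4 and C47E8.4 were named outside it, for role, level or position, after their values were seen. Marker genes are given as lists, except myo-1 and myo-2, which were named because the exact test called them, and vit-2 and vit-6, named for their level. The members and lists were chosen with earlier results of these data known. The planned promoter motif search was not run.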

Additional observations from a re-analysis of the deposited data

How the results depend on the processing

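None of the 5 heat shock genes that passed the filter was called under any of the 22 alternatives. Several of these alternatives called 0 of all genes tested, as given below. The genes hsp-16.2 and hsp-16.41 were also not called in the few fits whose filter kept them. The lowest adjusted p of the 5 was 0.0661, for hsp-1 by edgeR's exact test without control replicate 2. DESeq2 gave hsp-70 no adjusted p, and the filter at 1 CPM removed this gene. Over these alternatives daf-21 and hsp-70 kept their direction, with log2 fold changes of 0.010 to 0.093 and of -0.39 to -0.047. With library size only, hsp-110 and hsf-1 turned to -0.0096 and -0.0019, and with limma on log2(RPKM + 1) to -0.014 and -0.0059. Without control replicate 1, hsp-1 turned to -0.021 and hsp-110 to -0.042 by either test. With 1 library left out their ranges were -0.021 to 0.19 and -0.042 to 0.099. The cause of these turns was not tested.

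The number of genes called over all genes, 0 in the quasi-likelihood test, was 139 by the exact test, 157 by the likelihood ratio test, 30 by DESeq2 and 79 without the filter. It was also 0 with RLE size factors, library size only, the filter at 1 CPM, robust dispersion and the length correction alone. With the highest transcript per gene, limma on log2(RPKM + 1) and the transcript counts it was 0 as well. In these settings the lack of calls is not particular to the heat shock genes. It was 2 to 193 with 1 library left out, and for the exact test, added after seeing the data, 211, 258, 162 and 11 without control replicates 1 and 2 and arsenite replicates 1 and 2. Of the other chaperone genes, 0 to 1 were called when 1 library was left out, by either test. The replicate number as a block gave 80 genes, and 27 with the length correction as well, with none of the 5 tested heat shock genes among them. The labels share only a number, and the deviations of same-numbered libraries correlated at 0.049. The counts of lists on the RPKM scale and under other scalings, given with each list, were also added after seeing the data. A pseudocount of 10 lowered the log2 ratio of hsp-16.2 from 1.05 to 0.44. Reads per library limit what can be said of hsp-70 and the hsp-16 genes.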
